A study of Mus musculus with 6 samples.

Results

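Fibroblast growth factors (FGFs) are secreted signalling proteins, and 6 genes of the system are described here in the mouse lateral amygdala, which takes part in storing fear memories. They are the ligands Fgf1, Fgf2 and Fgf9 and the receptors Fgfr1, Fgfr2 and Fgfr3. The genes were taken by symbol from the deposited tables, and each matched 1 gene ID, so they are 6 of 50383 genes. They were chosen by their FPKM in the libraries labelled Baf53b siRNA and scrambled siRNA, because Fgf1 and Fgf9 tended to be lower in the Baf53b siRNA libraries. That contrast is therefore given as a description without a test.

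The study asked what the loss of BAF53b, a neuronal subunit of the BAF nucleosome remodelling complex encoded by Actl6b, does to memory and to transcription in the lateral amygdala. RNA was sequenced in 3 groups of 2 libraries each, called Baf53b siRNA, scrambled siRNA and control. Baf53b siRNA is a small interfering RNA against BAF53b, and the design text places its injection 1 day after training. Scrambled siRNA is a small interfering RNA of shuffled sequence. The labels do not say when it was injected or what the control mice received. All mice were males of a 129xC57BL/6 hybrid strain, aged 2-3 months. The labels speak of tissue from 4 mice without saying whether a library is a pool, so p-values measure only the spread between these libraries. An injected small interfering RNA is not limited to neurons by any promoter, and the tissue was sequenced whole.

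Secreted FGFs bind receptor tyrosine kinases at the cell surface together with heparan sulfate, a sulfated sugar chain that holds ligand and receptor in 1 complex. The activated receptor phosphorylates the docking protein FRS2, which recruits adaptors that switch on the RAS and ERK kinase cascade. That cascade induces its own brakes, among them the Sprouty proteins and the phosphatase DUSP6. In the adult brain FGFR3 is a marker of astrocytes, FGFR1 is found widely in neurons, and FGFR2 is found in oligodendrocytes and astrocytes.

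The deposited unit is FPKM, in which the fragments of a gene are divided by its length and by the size of the library. Read counts were not used. If read as counting error alone, the deposited intervals implied between 6.43 M and 10.7 M fragments behind the genes of a library, and 171 to 306 fragments for the median gene. The intervals may hold other error as well, so these numbers are rough. Genes of the mitochondrial chromosome took between 15.0% and 29.5% of the FPKM sum. Actl6b, the gene targeted, had 42.8 and 39.6 FPKM in the Baf53b siRNA libraries, 43.8 and 43.9 FPKM with scrambled siRNA and 42.9 and 44.1 FPKM in the control libraries. Its log2 difference of Baf53b siRNA from scrambled siRNA was -0.09 (95% interval -0.38 to 0.21, limma adjusted p = 1), so no loss of its mRNA was detected, and each direction below goes by the labels. Here a gene is called where its limma p, adjusted over all 14664 genes tested by the Benjamini-Hochberg method, is under 0.05. Excitatory neuron markers summed to 2533 to 3127 FPKM over 9 genes with none under 0.1 FPKM in every library. Markers of the neighbouring striatum and central amygdala summed to 152 to 180 FPKM over 11 genes, with 1 under 0.1 FPKM in every library. Of these markers 1 was called, as higher in Baf53b siRNA than in control (limma adjusted p = 0.0477). Sums over different genes do not compare tissue content. In bulk tissue, fewer cells of a type and less RNA per cell cannot be told apart.

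Averaged over the 6 libraries, Fgfr3 had the highest level at 28.9 ± 3.76 FPKM (SD, n = 6). Fgf1 followed at 14.1 ± 5.11 FPKM, then Fgfr1 at 9.15 ± 0.728, Fgfr2 at 9.13 ± 1.01, Fgf9 at 3.79 ± 0.798 and Fgf2 at 1.98 ± 0.583 FPKM (SD, n = 6 each). FPKM is scaled by length, so these levels can be set side by side. Fgfr3 exceeded Fgf1 in 6 of 6 libraries, Fgfr2 exceeded Fgf9 in 6 of 6, and Fgf9 exceeded Fgf2 in 6 of 6. Fgf1 exceeded Fgfr1 in 5 of 6 libraries, with a mean log2 ratio of 0.56 ± 0.46 (SD), and Fgfr1 and Fgfr2 did not differ beyond their spread (mean log2 ratio 0.01 ± 0.26). Among protein-coding genes Fgfr3 lay between the 85.8th and 88.4th percentile of a library and Fgf2 between the 43.6th and 53.1st. Fgf1 also varied most, with a highest level 2.51-fold above its lowest, while Fgfr1 varied least, by 1.26-fold.

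**Figure D1:**
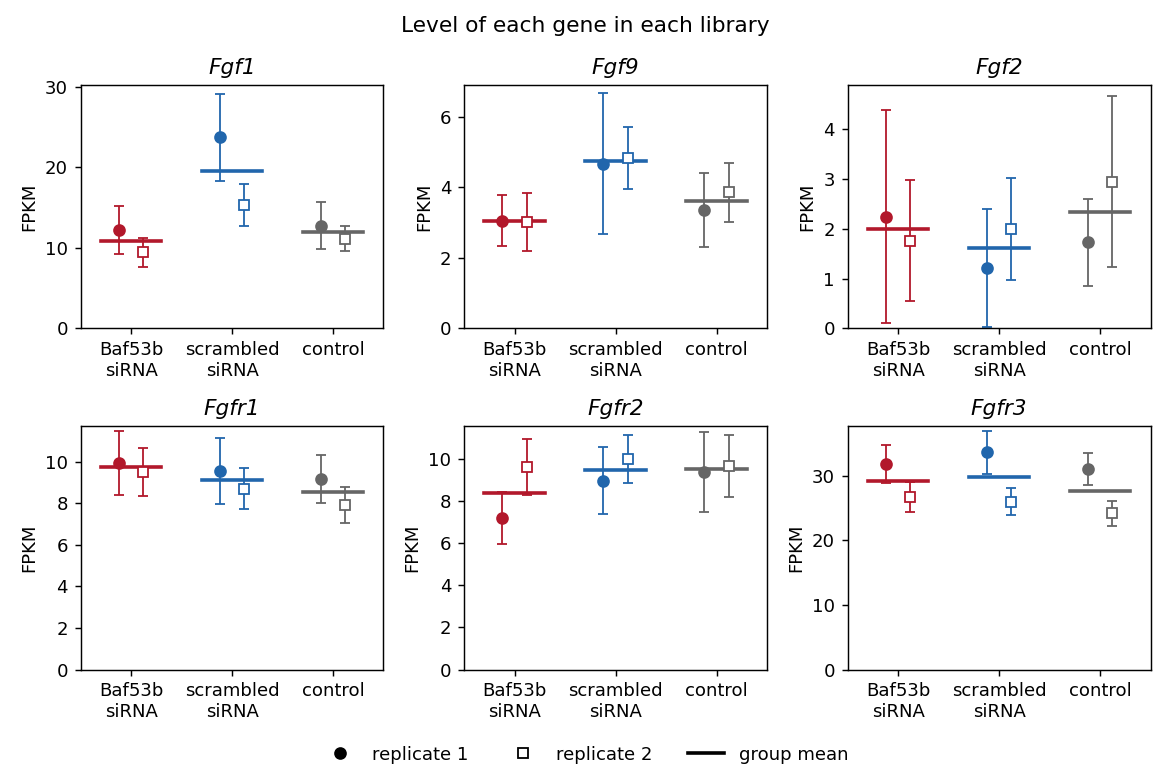
FPKM of each of the 6 genes in each library, 1 panel per gene, with the group mean as a bar and the authors' deposited interval as a line through each point. Fgf1 reached 23.8 and 15.3 FPKM with scrambled siRNA and stayed between 9.46 and 12.7 FPKM in the other 4, whereas points of the 3 receptors overlapped between Baf53b siRNA and scrambled siRNA.

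Fgf1 encodes a ligand that binds all FGF receptors and leaves cells without a signal peptide. The gene (ENSMUSG00000036585.15) lies at chr18:38838673-38929404 on the minus strand of mm10 and has 11 annotated transcripts in GENCODE M21, 9 of them coding, which the deposited gene levels do not separate. It had 12.2 and 9.46 FPKM in Baf53b siRNA libraries, 23.8 and 15.3 FPKM in scrambled siRNA libraries and 12.7 and 11.1 FPKM in control libraries. Both scrambled siRNA libraries thus stood above the other 4, and in deposited FPKM the Baf53b siRNA libraries overlapped with control. Rescaled without mitochondrial genes, Fgf1 was 15.1 and 12.2 with Baf53b siRNA and 15.8 and 15.8 in control. Scaling each library by its median ratio to the gene averages gave 11.7 and 9.63 against 12.4 and 11.9. Both Baf53b siRNA libraries lay below both control libraries in these 2 scalings. In deposited FPKM the group means were 10.8 ± 1.91, 19.5 ± 5.95 and 11.9 ± 1.12 FPKM (SD, n = 2 each) for Baf53b siRNA, scrambled siRNA and control. Of 14664 genes tested, 2.55% had both scrambled siRNA libraries above the other 4. The choice of Fgf1 already held part of this arrangement, scrambled siRNA above Baf53b siRNA, so nothing is read from that share.

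The spread of Fgf1 was largest within scrambled siRNA, where the deposited intervals of replicate 1 (18.3 to 29.2 FPKM) and replicate 2 (12.7 to 18.0 FPKM) did not overlap. On the log2(FPKM + 1) scale, Baf53b siRNA minus scrambled siRNA was -0.78, or -44.7% in mean FPKM, a difference that took part in the choice of the gene. Without scrambled siRNA replicate 1 it was -0.48, and without scrambled siRNA replicate 2 it was -1.08, so its size rested on which scrambled library was used.

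Set against control, the Fgf1 level in scrambled siRNA was higher by 0.64 (SE 0.23, 95% interval 0.10 to 1.18), or 63.7% in mean FPKM. This did not pass the test, with an unadjusted p of 0.0261 and a limma adjusted p of 1 over all genes. The difference between Baf53b siRNA and control was -0.14 (SE 0.23, 95% interval -0.68 to 0.40, limma adjusted p = 1). The scrambled siRNA and Baf53b siRNA libraries also served to choose the gene, so neither value is independent of that choice.

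Fgf9 encodes a secreted ligand that is made by neurons and glia and binds FGFR3 with high affinity. It (ENSMUSG00000021974.14) lies at chr14:58070547-58112337 on the plus strand and has 4 coding transcripts. The level was 3.06 and 3.01 FPKM in Baf53b siRNA libraries, 4.67 and 4.82 FPKM in scrambled siRNA libraries and 3.35 and 3.85 FPKM in control libraries. The groups did not overlap: the scrambled siRNA pair was highest, control lay between, and the Baf53b siRNA pair was lowest. Group means were 3.03 ± 0.0345 FPKM with Baf53b siRNA, 4.75 ± 0.111 FPKM with scrambled siRNA and 3.60 ± 0.353 FPKM in control (SD, n = 2 each). The deposited interval of scrambled siRNA replicate 1 (2.66 to 6.67 FPKM) overlapped those of both Baf53b siRNA libraries, which ended at 3.79 and 3.82 FPKM, and that of scrambled siRNA replicate 2 (3.93 to 5.71 FPKM) did not.

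The log2 difference of Fgf9 in Baf53b siRNA from scrambled siRNA was -0.51, or -36.1% in mean FPKM, and it moved only between -0.53 and -0.49 when single libraries were left out. Fgf1 and Fgf9 were the 2 of 6 genes with both Baf53b siRNA libraries below both scrambled siRNA libraries, an arrangement that 9% of the 14664 genes tested showed. Because this arrangement led to the choice of the genes, nothing is read from the count. Against control, Fgf9 differed by 0.32 in scrambled siRNA (SE 0.15, 95% interval -0.03 to 0.67) and by -0.19 in Baf53b siRNA (SE 0.15, 95% interval -0.54 to 0.16), both with a limma adjusted p of 1. When FPKM was rescaled without mitochondrial genes, scrambled siRNA replicate 1 (5.49) and control replicate 2 (5.47) were level.

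The sequence just upstream of Fgf9 is shown because its 3 groups did not overlap. These are the 250 bases before the RefSeq start site (GRCm38.p6, chr14:58072436-58072685, plus strand), which lie inside the deposited span of the gene, with the letters of a cyclic AMP response element core, TGACG, in capitals.
Fgf9 upstream window: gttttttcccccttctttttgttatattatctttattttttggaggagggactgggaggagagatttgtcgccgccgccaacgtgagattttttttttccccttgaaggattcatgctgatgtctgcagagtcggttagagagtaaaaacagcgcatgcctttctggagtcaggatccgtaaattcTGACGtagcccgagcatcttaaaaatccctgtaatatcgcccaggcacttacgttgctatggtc
The TGACG run begins 64 bases before the start site. It was the sole match in the window among the 6 motifs searched on both strands, which were TGACGTCA, TGACG (which also lies inside TGACGTCA), the Egr1 site GCGGGGGCG, the GC box GGGCGG, the AP-1 site TGACTCA and the E-box CACGTG. Of 32851 RefSeq promoter windows of the same length, 17.8% held TGACG on either strand, 1.55% held TGACGTCA and 32.7% held GGGCGG. The window had a GC content of 44.8%, against a median of 52.4% over all promoters. A match is a run of letters and not a shown site.

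Fgf2, the basic FGF of astrocytes (ENSMUSG00000037225.13), lies at chr3:37348346-37410108 on the plus strand. Its level was 2.25 and 1.76 FPKM in Baf53b siRNA libraries, 1.22 and 1.99 FPKM in scrambled siRNA libraries and 1.73 and 2.95 FPKM in control libraries. All 3 groups overlapped. Its deposited intervals spanned 50.6% to 97.2% of the level to either side, the widest of the 6 genes. Exons of Fgf2 share 640 bases with Nudt6 on the opposite strand, which had 1.74 to 2.96 FPKM, and the use of strand in the counting is not given in the sources used here, so the Fgf2 level may hold fragments of Nudt6. The difference from control was -0.13 in Baf53b siRNA (SE 0.25, 95% interval -0.71 to 0.45) and -0.35 in scrambled siRNA (SE 0.25, 95% interval -0.93 to 0.23), each with a limma adjusted p of 1.

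Fgf1 made up the largest share of all secreted ligand FPKM, summed over 15 ligand genes, in every library. The share was 57.4% and 52.1% in Baf53b siRNA libraries, 70.1% and 58.2% in scrambled siRNA libraries and 58.0% and 51.1% in control libraries. Fgf1, Fgf2 and Fgf9 together made up between 78.4% and 87.5% of the sum. The sum itself was 21.2 and 18.1 FPKM in Baf53b siRNA libraries, 33.9 and 26.4 FPKM in scrambled siRNA libraries and 22.0 and 21.8 FPKM in control libraries, highest in both scrambled siRNA libraries. Because Fgf1 was chosen on these libraries and makes up most of the sum, this order restates the choice. Without Fgf1 the sum was 9.02 and 8.69 FPKM in Baf53b siRNA libraries, 10.1 and 11.04 FPKM in scrambled siRNA libraries and 9.22 and 10.7 FPKM in control libraries. Scrambled siRNA then overlapped with control and stayed above both Baf53b siRNA libraries. That sum still holds Fgf9, which the same libraries served to choose. Fgf10, a ligand of FGFR2, was the other secreted ligand with a mean of at least 1 FPKM, at 1.03 and 1.31 FPKM with Baf53b siRNA, 1.02 and 1.18 FPKM with scrambled siRNA and 1.55 and 1.32 FPKM in control. Fgf4 and Fgf8, ligands of the embryo, were listed at 0 in all 6 libraries.

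**Figure D2:**
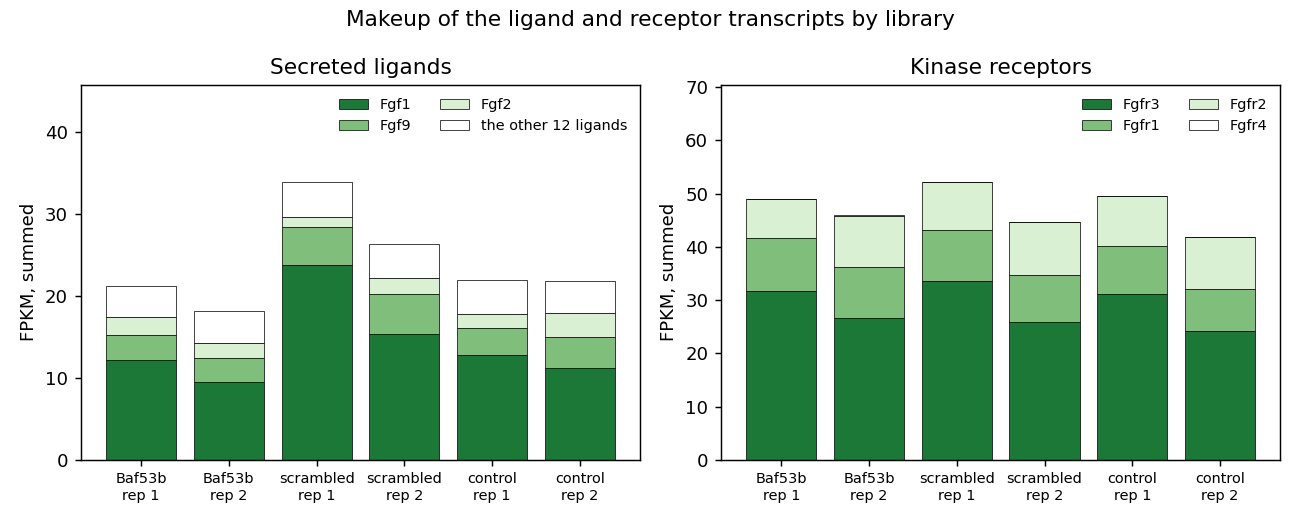
Stacked bars of the FPKM of secreted ligands and of signalling receptors in each library, in the order Baf53b siRNA, scrambled siRNA and control. The same shades of green serve for Fgf1, Fgf9 and Fgf2 and for Fgfr3, Fgfr1 and Fgfr2. White stands for the remaining ligands or for Fgfr4. The ligand sum was 33.9 and 26.4 FPKM with scrambled siRNA against 18.1 to 22.0 FPKM in the other libraries, while the receptor sum stayed between 41.8 and 52.2 FPKM.

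For the receptors, the Baf53b siRNA libraries overlapped with the scrambled siRNA libraries in every case in deposited FPKM. Rescaling changed this for Fgfr1, as given below. Fgfr3, the receptor that marks astrocytes (ENSMUSG00000054252.17), lies at chr5:33721674-33737068 on the plus strand and had 31.8 and 26.7 FPKM in Baf53b siRNA libraries, 33.6 and 26.0 FPKM in scrambled siRNA libraries and 31.1 and 24.2 FPKM in control libraries. Replicate 1 was above replicate 2 in each group, and all 3 groups overlapped. The log2 difference of Baf53b siRNA from scrambled siRNA was -0.02. Against control it was 0.09 in Baf53b siRNA (SE 0.19, 95% interval -0.37 to 0.54) and 0.10 in scrambled siRNA (SE 0.19, 95% interval -0.35 to 0.56), with limma adjusted p-values of 1. The deposited intervals of Fgfr3 were the narrowest of the 6 genes, between 7.95% and 9.90% of the level to either side.

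Fgfr3 is also 1 of the 14 astrocyte markers listed, which summed to 1833 and 1776 FPKM with Baf53b siRNA, 1928 and 1754 FPKM with scrambled siRNA and 1634 and 1838 FPKM in control. Of the 14, 1 was called in any comparison, Aqp4, which was higher in Baf53b siRNA than in control (limma adjusted p = 0.0446). The part of astrocyte content in the Fgfr3 level was not tested. The upstream sequence of Fgfr3, the member with the highest level, is shown with the reverse complement of the Egr1 site in capitals. These are 200 bases that end just before the deposited start of the gene (GRCm38.p6, chr5:33721474-33721673, plus strand).
Fgfr3 upstream window: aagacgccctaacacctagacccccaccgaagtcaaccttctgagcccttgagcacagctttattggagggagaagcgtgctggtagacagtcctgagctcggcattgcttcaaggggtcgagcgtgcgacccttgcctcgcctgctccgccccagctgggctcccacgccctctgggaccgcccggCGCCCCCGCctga
The capitals begin 63 bases before the RefSeq start site, and 2.57% of the 32851 promoter windows held this motif on either strand. The 250-base window also held the GC box and had a GC content of 66.8%, against the median of 52.4% over all promoters. RefSeq gives a second start site for Fgfr3, whose window (GC content 72.8%) held the GC box and no match to the Egr1 site. Egr1 itself, an early response gene that ERK signalling induces, had 32.9 and 25.7 FPKM with Baf53b siRNA, 34.8 and 32.1 FPKM with scrambled siRNA and 31.2 and 29.2 FPKM in control, which did not pass the test in any comparison.

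Fgfr1 (ENSMUSG00000031565.18) lies at chr8:25513654-25575718 on the plus strand. It had 9.96 and 9.52 FPKM in Baf53b siRNA libraries, 9.58 and 8.71 FPKM in scrambled siRNA libraries and 9.17 and 7.93 FPKM in control libraries. In deposited FPKM both Baf53b siRNA libraries were above both control libraries, as in 16.7% of the genes tested, and the other pairs of groups overlapped. Rescaled without mitochondrial genes, Fgfr1 was 12.34 and 12.33 with Baf53b siRNA, 11.27 and 11.93 with scrambled siRNA and 11.37 and 11.26 in control. Both Baf53b siRNA libraries then stood above all the others, as they also did when each library was scaled by its median ratio to the gene averages. The share of all genes in that order was not computed. The log2 difference was 0.08 between Baf53b siRNA and scrambled siRNA and 0.17 between Baf53b siRNA and control (SE 0.14, 95% interval -0.17 to 0.51, limma adjusted p = 1). Between scrambled siRNA and control it was 0.09 (SE 0.14, 95% interval -0.25 to 0.43, limma adjusted p = 1).

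Fgfr2 (ENSMUSG00000030849.18) had 7.19 and 9.61 FPKM in Baf53b siRNA libraries, 8.97 and 9.99 FPKM in scrambled siRNA libraries and 9.38 and 9.66 FPKM in control libraries. Baf53b siRNA replicate 1 was the lowest, and the groups overlapped. The log2 difference of Baf53b siRNA from scrambled siRNA was -0.17, and 0.02 without Baf53b siRNA replicate 1. Against control it was -0.17 in Baf53b siRNA (SE 0.17, 95% interval -0.57 to 0.22) and -0.01 in scrambled siRNA (SE 0.17, 95% interval -0.41 to 0.39), with limma adjusted p-values of 1. Its deposited locus, chr7:130162451-133123350 on the minus strand, spans 2.96 Mb and overlaps 69 other genes. It shares 314 exon bases on the same strand with Ctbp2, at 15.0 to 18.9 FPKM, so its level is uncertain.

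Within the summed FPKM of the signalling receptors Fgfr1 to Fgfr4, Fgfr3 took 64.9% and 58.1% in Baf53b siRNA, 64.4% and 58.1% in scrambled siRNA and 62.6% and 57.8% in control. The share of Fgfr1 ranged from 18.4% to 20.7% and that of Fgfr2 from 14.7% to 23.1%. Fgfr4 took at most 0.244% and averaged 0.0372 FPKM. Fgfrl1, a receptor without a kinase domain, had 5.24 and 4.11 FPKM with Baf53b siRNA, 4.37 and 4.17 FPKM with scrambled siRNA and 4.37 and 3.44 FPKM in control. The ratio of ligand to receptor FPKM was 0.433 and 0.395 in Baf53b siRNA, 0.649 and 0.590 in scrambled siRNA and 0.442 and 0.522 in control, and carries the same choice of Fgf1.

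Across the 6 genes, none passed the test against control in either comparison, where 1.23% of all genes tested were called for Baf53b siRNA and 0% for scrambled siRNA. At an unadjusted p under 0.05, Fgf1 alone passed, as higher between scrambled siRNA and control, where 2.22% of all genes passed, 2.03% as higher and 0.184% as lower. Between Baf53b siRNA and control 0 of the 6 passed at that level, beside 5.02% of all genes. In deposited FPKM, both Baf53b siRNA libraries were above both control libraries for 1 of the 6 genes, Fgfr1, and below them for 1, Fgf9, against 16.7% and 7.11% of all genes. On the same scale, both scrambled siRNA libraries were above both control libraries for 2 of the 6 genes, Fgf1 and Fgf9, and below them for 0, against 12.7% and 5.57% of all genes. Such counts depend on the scaling, as the rescaled levels of Fgf1 given above show. Fgf1 and Fgf9 led to the choice by being lower in Baf53b siRNA than in scrambled siRNA. These counts and the pass of Fgf1 are therefore not independent of that choice. With 2 libraries on each side the smallest p of an exact permutation test is 0.333, so single genes were not tested that way. The control comparisons share libraries with each other and with the descriptive contrast, so their values are given side by side only. The median log2 difference over the 6 genes was -0.09 between Baf53b siRNA and scrambled siRNA, -0.14 between Baf53b siRNA and control and 0.10 between scrambled siRNA and control. Over all genes tested it was 0.0026, 0.04 and 0.04. The first median over the 6 genes comes from the contrast that led to the choice, and nothing is read from it.

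**Figure D3:**
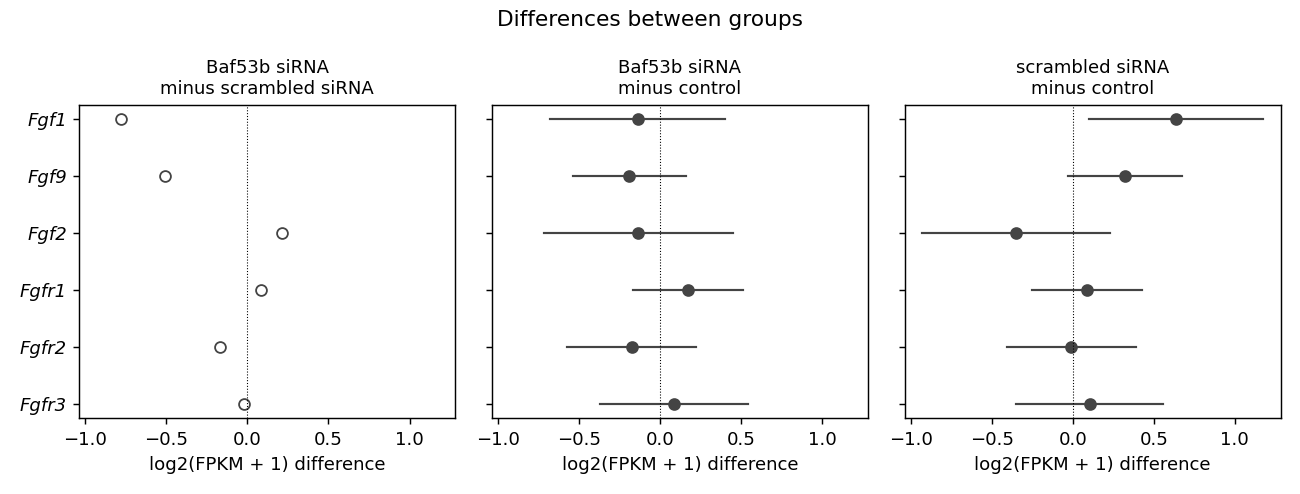
Log2 differences of log2(FPKM + 1) for the 6 genes in the 3 comparisons, with 95% intervals for the comparisons with control and none for Baf53b siRNA against scrambled siRNA, which served to choose the genes. Fgf1 in scrambled siRNA against control (0.64, interval 0.10 to 1.18) is the single interval that leaves out 0, and its limma adjusted p is 1.

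The replicate numbers carried a difference of their own for some genes. Fgfr3 in replicate 1 was 1.19, 1.29 and 1.28 times replicate 2 in Baf53b siRNA, scrambled siRNA and control, and Fgf1 was 1.29, 1.55 and 1.14 times replicate 2. Of all genes tested, 37.1% were above replicate 2 in replicate 1 of every group and 11.4% were below. Mitochondrial genes took 19.3%, 15.0% and 19.4% of FPKM in replicate 1 and 22.8%, 26.9% and 29.5% in replicate 2, listed as Baf53b siRNA, scrambled siRNA and control. When these genes were left out of the scaling, the ratios for Fgfr3 became 1.14, 1.11 and 1.12, and those for Fgf1 became 1.23, 1.33 and 0.999. Fgf2 had no common direction, with ratios of 1.28, 0.611 and 0.587.

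**Figure D4:**
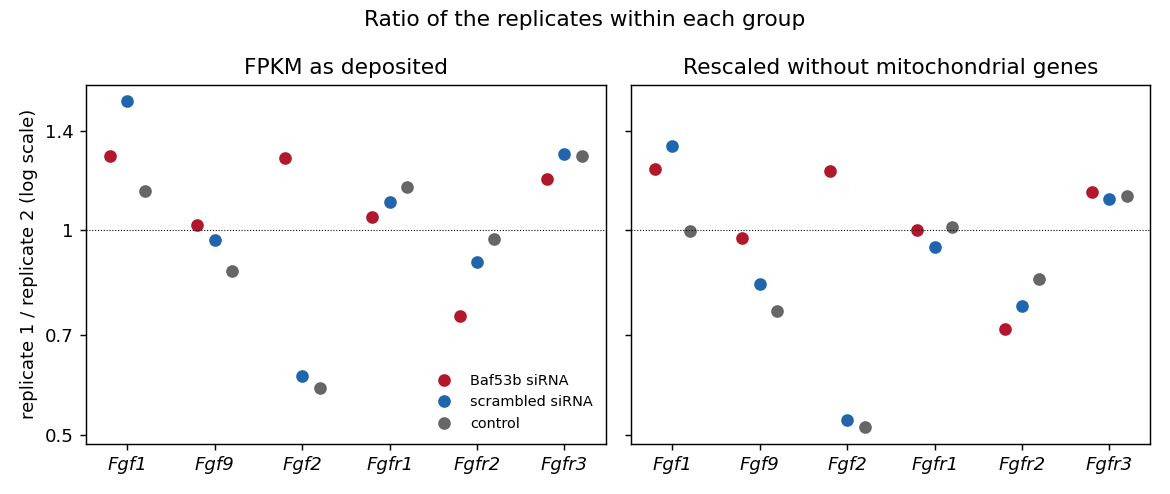
Ratio of replicate 1 to replicate 2 for each of the 6 genes in each group, on a log axis. Fgfr3 is above 1 in all 3 groups, Fgfr2 is below 1 in all 3, and Fgf2 is 1.28 in Baf53b siRNA but 0.611 and 0.587 in scrambled siRNA and control.

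Around the 6 genes, 101 genes of the FGF system were listed by role, of which 99 were measured and 76 tested. Of the 70 tested genes other than the 6, 0 were called in any of the 3 comparisons, beside 0.123% of all genes for Baf53b siRNA against scrambled siRNA, 1.23% for Baf53b siRNA against control and 0% for scrambled siRNA against control. At an unadjusted p under 0.05, 2 of these 70 were higher and 0 lower between Baf53b siRNA and scrambled siRNA, beside 2.67% and 0.361% of all genes. Between Baf53b siRNA and control 3 of 70 were higher and 0 lower, beside 4.75% and 0.273% of all genes, and between scrambled siRNA and control none was. The median log2 difference of the 76 genes was -0.04, -0.02 and 0.04 in the 3 comparisons, against 0.0026, 0.04 and 0.04 for all genes.

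**Figure D5:**
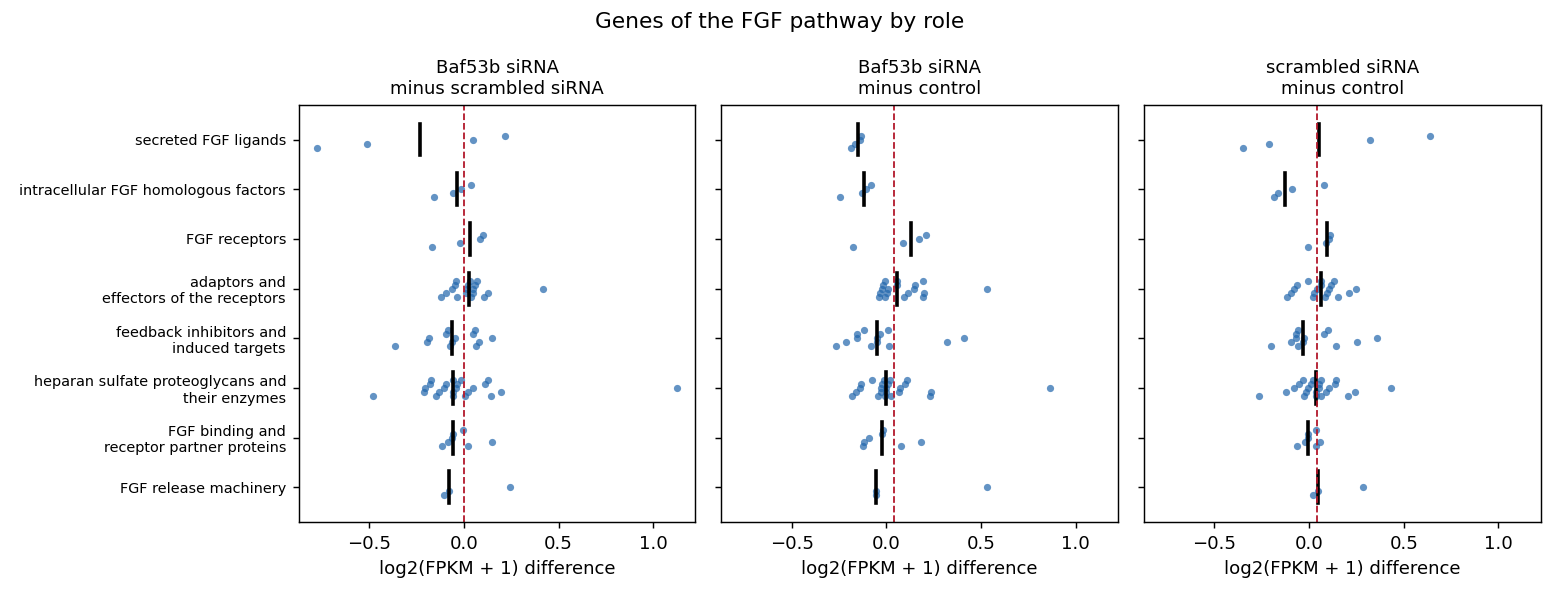
Log2 differences of the tested genes of each FGF role list in the 3 comparisons, 1 point per gene, with the list median marked. Most points lie near 0, and Sulf1 stands highest at 1.13 for Baf53b siRNA against scrambled siRNA, with a limma adjusted p of 0.277.

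Of the heparan sulfate proteins and enzymes, 0 of 23 tested genes passed in any comparison. Sulf1, an extracellular enzyme that removes sulfate groups from heparan sulfate, had the largest difference, with 5.56 and 3.72 FPKM with Baf53b siRNA, 1.54 and 1.55 FPKM with scrambled siRNA and 2.54 and 1.65 FPKM in control. Both Baf53b siRNA libraries were above the other 4, with log2 differences of 1.13 (SE 0.22, limma adjusted p = 0.277) against scrambled siRNA and 0.86 (SE 0.22, limma adjusted p = 0.259) against control. Hs6st3, a heparan sulfate sulfotransferase, had 1.14 and 1.31 FPKM with Baf53b siRNA, 2.76 and 1.55 FPKM with scrambled siRNA and 1.42 and 1.18 FPKM in control, and differed by 0.43 between scrambled siRNA and control (limma adjusted p = 1). The proteoglycans with the highest mean levels were Sdc3 at 39.8 FPKM, Agrn at 21.4 FPKM and Sdc2 at 20.9 FPKM.

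Among the adaptors and effectors that act below the receptors, 0 of 18 passed. The kinases Mapk3 and Map2k1 had mean levels of 181 and 152 FPKM. Shc1, an adaptor of receptor tyrosine kinases, had 3.05 and 2.96 FPKM with Baf53b siRNA, 1.84 and 2.16 FPKM with scrambled siRNA and 1.82 and 1.71 FPKM in control. Its log2 difference between Baf53b siRNA and control was 0.53 (SE 0.16, limma adjusted p = 0.378), with both Baf53b siRNA libraries above the other 4.

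The feedback inhibitors and induced targets, genes that receptor and ERK signalling switch on, gave 0 of 13 called. Their median log2 difference was -0.06 between Baf53b siRNA and scrambled siRNA and -0.05 between Baf53b siRNA and control. In the second of these, 6 of 13 had both Baf53b siRNA libraries below both control libraries, an arrangement that 7.11% of all genes showed, and the 6 were Spry2, Spry4, Spred1, Spred2, Etv1 and Etv5. In the first, 3 of 13 were below and 1 above, beside 9% and 13.1% of all genes. Between scrambled siRNA and control 2 were below and 2 above, beside 5.57% and 12.7%. Genes of 1 pathway can vary together and the list was made with earlier results known, so these counts carry no test. The gaps of the 6 from control were small: Spry2 had 10.8 and 10.9 FPKM with Baf53b siRNA, 12.3 and 12.6 FPKM with scrambled siRNA and 12.1 and 13.4 FPKM in control. Etv1, an ETS transcription factor, had 18.6 and 19.0 FPKM with Baf53b siRNA, 23.7 and 25.3 FPKM with scrambled siRNA and 19.4 and 26.8 FPKM in control, a log2 difference of -0.36 against scrambled siRNA (limma adjusted p = 1). Dusp6 gave no such order, with 16.0 and 9.62 FPKM with Baf53b siRNA, 13.04 and 10.8 FPKM with scrambled siRNA and 9.55 and 9.97 FPKM in control. Etv4 had 4.88 and 3.21 FPKM with Baf53b siRNA, 3.79 and 3.83 FPKM with scrambled siRNA and 4.02 and 1.80 FPKM in control.

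The intracellular FGF homologous factors, which bind sodium channels and do not act through the receptors in the usual way, include the pair of FGF genes with the highest mean levels, Fgf13 and Fgf12. Fgf13 had 123 and 95.6 FPKM with Baf53b siRNA, 141 and 104 FPKM with scrambled siRNA and 128 and 102 FPKM in control. Fgf12 averaged 44.2 FPKM, Fgf14 13.5 FPKM and Fgf11 4.52 FPKM, and 0 of 4 were called in any comparison. Of the proteins that release FGF1 or FGF2 from cells, S100a13 had 26.7 and 30.0 FPKM with Baf53b siRNA, 25.1 and 22.4 FPKM with scrambled siRNA and 17.9 and 20.8 FPKM in control. S100a13, which travels out of the cell with FGF1, differed by 0.53 between Baf53b siRNA and control (SE 0.15, limma adjusted p = 0.320). Of the binding and partner proteins, L1cam, Ncam1 and Cdh2 averaged 42.4, 37.3 and 34.6 FPKM, and 0 of 7 tested were called.

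Markers of microglia, reactive astrocytes and leukocytes differed between the groups in an order unlike that of Fgf1 and Fgf9. Oligodendrocyte markers, and thalamic and hypothalamic markers, had both scrambled siRNA libraries highest, as Fgf1 and Fgf9 did. The oligodendrocyte sum was lowest in control, whereas Fgf9 was lowest in Baf53b siRNA. The 15 microglia markers summed to 1210 and 997 FPKM with Baf53b siRNA, 679 and 670 FPKM with scrambled siRNA and 387 and 380 FPKM in control. The 14 reactive astrocyte genes summed to 436 and 437 FPKM, 141 and 125 FPKM, and 67.6 and 72.5 FPKM in the same order of groups. Infiltrating leukocyte markers, 15 genes, summed to 443 and 215 FPKM with Baf53b siRNA, 34.8 and 25.3 FPKM with scrambled siRNA and 8.24 and 6.29 FPKM in control. Of the sum in Baf53b siRNA replicate 1, Cd74 alone held 211 FPKM. The T cell marker Cd3e averaged 0.288 FPKM, was not tested and was listed at 0 in both control libraries. Between Baf53b siRNA and control 10 of 15 microglia markers, 9 of 10 tested reactive astrocyte genes and 5 of 7 tested leukocyte markers were called, all higher, and between scrambled siRNA and control 0 of each were. Against scrambled siRNA, 0 of 15, 4 of 10 and 3 of 7 were called in Baf53b siRNA. All 3 sums were lowest in control and highest in Baf53b siRNA, whereas Fgf1 and Fgf9 were highest in scrambled siRNA. The 13 oligodendrocyte markers summed to 1043 and 1035 FPKM with Baf53b siRNA, 1064 and 1140 FPKM with scrambled siRNA and 793 and 1000 FPKM in control, with both scrambled siRNA libraries above the other 4. None of the 13 was called in any comparison. A higher mean than in control was seen for 13 of 13 in scrambled siRNA and for 12 of 13 in Baf53b siRNA. The part of these cells in the levels of the 6 genes was not tested. The thalamic and hypothalamic markers stayed between 20.8 and 22.8 FPKM over 10 genes, of which 2 were under 0.1 FPKM in every library and 1 of these was at 0. Their sum was 22.8 and 22.4 FPKM with scrambled siRNA, 21.5 and 21.4 FPKM with Baf53b siRNA and 20.8 and 22.2 FPKM in control.

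The genes whose pattern over the 6 libraries was most like that of each member were found by Pearson's r of log2(FPKM + 1) among 2423 protein-coding genes. These r values describe 6 libraries that share groups and mitochondrial share, and carry no test. For Fgf1 they were Ccdc91 (r = 0.968), Klhdc8a (r = 0.963) and Flywch2 (r = 0.954). Ccdc91 had 13.8 and 11.2 FPKM with Baf53b siRNA, 45.6 and 17.9 FPKM with scrambled siRNA and 15.1 and 15.2 FPKM in control, so its likeness to Fgf1 lies in the height of scrambled siRNA replicate 1. For Fgf9 they were Wwox (r = 0.843), Nrep (r = 0.841) and Etv1 (r = 0.821). For Fgf2 they were Snrpb2 (r = 0.972), Cdkl3 (r = 0.944) and mt-Nd3 (r = 0.937), the last a gene of the mitochondrial chromosome. Fgfr3 was most like Ehmt2, Dusp26 and Gtf3c1 (r = 0.997 each), which share its height in replicate 1. Fgfr1 was most like Diablo (r = 0.997), Nfasc (r = 0.993) and 5031439G07Rik (r = 0.992), and Fgfr2 was most like Tex9 (r = 0.951), Hba-a1 (r = 0.917) and Meig1 (r = 0.911). Between the members, r was 0.774 for Fgf1 and Fgf9 and 0.791 for Fgfr1 and Fgfr3.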

How the data were processed

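RNA from lateral amygdala was sequenced in 6 libraries, 2 per group. Per the labels' protocols, oligo-dT selected the mRNA, the kit was stranded and sequencing was paired-end. The submitters' processing notes name Cufflinks 2.2.1, TopHat2 2.1.1 (aligner), bcl2fastq 2.19.1.403 and mm10. The annotation release, the settings and the use of strand are not given in the sources used. The authors deposited FPKM per gene with the bounds of an interval, per the file headers.

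A gene was kept if its mean FPKM reached 1. Small RNA genes (353), 4 genes with a failed estimate and 92 spike-in rows were left out, which left 14664 genes. Rows of 48 gene IDs were summed. On log2(FPKM + 1), with a pseudocount of 1, all 6 libraries entered 1 fit of the group means, made by limma 3.58.1 (R 4.3.3, eBayes, trend, two-sided, Benjamini-Hochberg at 0.05 over all genes), with 3 residual and 3.99 prior degrees of freedom. The fit was also run on simulated data with independent noise and shifts planted in Baf53b siRNA. That simulation left out the deviations that same-numbered libraries share, so nothing is concluded from it here. A fold on this scale understates the change of low genes. Fragments per gene were inferred from the width of the deposited intervals, taken as counting error alone. GENCODE M21 matched 50160 IDs, and 46613 had an identical start and end. The RefSeq promoter table held 4 of the 6 genes, and the windows of Fgf9 and Fgfr3 are shown.

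The members and all gene lists were chosen with earlier results of these data known. Named beside the members were, of each FGF list, the 3 genes with the highest mean and the gene with the largest difference per comparison, and the 3 protein-coding genes most like each member (mean FPKM of at least 5, SD of at least 0.2). Dusp6, Spry2 and the ligands listed at 0 were named after their values were seen. A gene that the rule also names is not reported here. Alternatives were another pseudocount, filters, scalings, fits, the replicate number as a block and leaving out each library.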

Additional observations from a re-analysis of the deposited data

Results flagged for a closer look

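Rows of synthetic spike-in RNA, used in no comparison and absent from the labels, summed to 4825 and 811 FPKM with Baf53b siRNA, 207 and 656 FPKM with scrambled siRNA and 117 and 125 FPKM in the control libraries, above control in all 4.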

How the results depend on the processing

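Of 589 log2 differences of named genes recomputed under 16 settings, 565 kept their direction and 24 changed sign. None of the 6 members was called against control in any setting. The range of Fgf1 between scrambled siRNA and control was 0.34 to 0.94 when single libraries were left out, and its smallest limma adjusted p in any setting was 0.579. A minimum mean of 5 FPKM removed Fgf2 and Fgf9 from the test.

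The count of called genes was 18 for Baf53b siRNA against scrambled siRNA, 181 for Baf53b siRNA against control and 0 for scrambled siRNA against control (325 at an unadjusted p under 0.05). Against scrambled siRNA it was 1 with a pseudocount of 0.1, 8 with a mean of at least 5 FPKM, 29 without a trend and 5 with small RNA kept, and 4 to 24 when 1 library was left out. Against control it was 4 without a filter, 71 with a mean of at least 5 FPKM and 34 to 139 with 1 library left out. For scrambled siRNA against control it was 13 without a filter, 1 with the 2 groups fitted alone and 0 to 7 with 1 library left out. Without a filter 1 FGF gene was called, Fgf20, at 0 and 0 FPKM in Baf53b siRNA, 0.0486 and 0.0527 FPKM in scrambled siRNA and listed at 0 in control (limma adjusted p = 0.0310 for Baf53b siRNA and 0.0423 for control, each compared with scrambled siRNA). The cause of these changes was not tested.

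With the replicate number as a block the counts were 13, 188 and 0. Same-numbered libraries deviated together, with correlations of 0.359, 0.183 and 0.390 over the 3 pairs of groups. With 2 numbers this does not show that the libraries are paired.

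All 24 changes of sign came where a library was left out, and the range over those fits is given. Between Baf53b siRNA and control it was -0.30 to 0.027 for Fgf1, -0.40 to 0.13 for Fgf2, -0.36 to 0.012 for Fgfr2, -0.088 to 0.26 for Fgfr3, -0.013 to 0.83 for Etv4 and -0.13 to 0.50 for Fgfbp3. Between scrambled siRNA and control it was -0.0044 to 0.18 for Fgfr1, -0.078 to 0.063 for Fgfr2, -0.075 to 0.28 for Fgfr3, -0.026 to 0.25 for Fgfrl1, -0.037 to 0.53 for Plcg1 and -0.062 to 0.78 for Etv4. Between Baf53b siRNA and scrambled siRNA it was -0.00019 to 0.43 for Fgf2, -0.35 to 0.019 for Fgfr2, -0.20 to 0.16 for Fgfr3, -0.37 to 0.055 for Fgf13 and -0.17 to 0.46 for Fgfbp3. The deposited intervals were widest for Fgf2.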
